A study of Mus musculus with 8 samples.

Results

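The secreted proteases that cut the extracellular matrix around neurons, and the inhibitors that hold them in check, were examined in ribosome-associated mRNA of cortical PV+ interneurons. The 10 genes, Adamts1, Adamts4, Adamts5, Adamts8, Adamts9, Adamts15, Mmp2, Mmp9, Timp2 and Timp3, were taken by symbol from the 45706 genes of the count table. All 10 were among the 17495 genes that remained after the filter on low counts. Every mouse carried PvalbFlp/+;Neurod6Cre/+ and had received at P1 a flox-fdio AAV that carries HA-RPL10a and myc-hM3Dq, the vehicle-treated mice included. In this virus the human synapsin promoter drives an HA-tagged ribosomal protein and hM3Dq, a receptor that excites the neuron when clozapine-N-oxide (CNO) binds it. Expression requires Flp and is switched off by Cre, so that it should be limited to Flp-expressing PV+ cells outside the Neurod6 lineage of pyramidal cells. Between P42 and P70, mice received 5 injections of CNO at 1 mg/kg or of vehicle over 48 h, and the tagged ribosomes were pulled down from S1. There were 4 samples per treatment, each pooled from 4 brains, so p-values describe the spread between pools, and no group received CNO without hM3Dq. The comparison asks which mRNAs differ on the ribosomes of PV+ interneurons after 2 days of raised activity.

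ADAMTS proteases are secreted zinc enzymes that bind the matrix through thrombospondin repeats. Several of them cut lecticans, the proteoglycans aggrecan, brevican, neurocan and versican, which link hyaluronan to tenascin-R in the perineuronal nets that enclose many PV+ interneurons. Mmp2 and Mmp9 encode the gelatinases, which cut denatured collagen and many other secreted and surface proteins, and tissue inhibitors of metalloproteinases (TIMPs) block the catalytic site of these enzymes. Much of this control acts on the protein, through propeptide removal, inhibition and uptake, which ribosome-associated mRNA does not show.

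The shared catalytic site is written in the genes themselves. The coding sequence of all 8 proteases held 1 stretch of 33 bases in which 3 histidine codons, which encode the residues that hold the zinc ion, are spaced alike, and that of Timp2 and Timp3 held none. The stretches follow, read from GENCODE M21 on GRCm38, 5′ to 3′ on the coding strand, with the histidine codons in capitals. They are shown because they mark what the proteases have in common.
Adamts1 at chr16:85799191-85799545, minus strand: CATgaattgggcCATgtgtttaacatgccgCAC
Adamts4 at chr1:171253210-171253915, plus strand: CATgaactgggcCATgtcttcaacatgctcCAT
Adamts5 at chr16:85878015-85887826, minus strand: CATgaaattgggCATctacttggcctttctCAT
Adamts8 at chr9:30952721-30953378, plus strand: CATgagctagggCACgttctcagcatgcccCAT
Adamts9 at chr6:92905285-92908493, minus strand: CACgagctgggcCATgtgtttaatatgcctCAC
Adamts15 at chr9:30911255-30911690, minus strand: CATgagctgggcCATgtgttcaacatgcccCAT
Mmp2 at chr8:92839279-92839311, plus strand: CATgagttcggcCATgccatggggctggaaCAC
Mmp9 at chr2:164951133-164951165, plus strand: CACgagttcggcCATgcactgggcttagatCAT
Of the 33 bases, 28 were the same as in Adamts1 in Adamts9 and in Adamts15, 27 in Adamts4, 22 in Adamts8 and 20 in Adamts5. Mmp2 shared 20 and Mmp9 shared 18, so that the stretch did not set Adamts5 apart from the gelatinases. Adamts5 had as many bases in common with Mmp9 as with Adamts8, 21 each, and fewer with the other ADAMTS genes. The closest pair was Adamts4 and Adamts15, with 30 bases in common. In the ADAMTS genes the stretch crosses an exon boundary, between exons 3 and 4 of 9 in Adamts1, so that its coordinates include an intron, whereas in Mmp2 and Mmp9 it lies within exon 8 of 13.

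Fos was higher in all CNO samples, and the samples differed in the level of PV+ cell markers. Fos, an immediate early gene, was at 36.9 to 83.7 TPM, a share of transcripts corrected for their length, in CNO samples and 13.8 to 20.6 TPM in vehicle samples. It had the smallest adjusted p of all genes, 0.052 in edgeR's quasi-likelihood test. Pvalb was at 300.1 TPM in vehicle sample 1 and between 819.7 and 1160 TPM in the other 7 samples, while Slc17a7, a marker of pyramidal cells, was still present at 331 to 547 TPM. A PV index was calculated as the difference between the average log2 CPM (counts scaled to library size) of 9 pyramidal and 10 PV+ interneuron genes, positive where the latter are higher. It was -0.92 in vehicle sample 1 and 0.50 to 0.98 in the other vehicle samples, against 0.38 to 1.54 in CNO samples. Summed TPM of the marker lists was 2566 to 3982 in CNO and 1192 to 3173 in vehicle samples for PV+ interneurons, 1369 to 1891 and 1547 to 2213 for pyramidal cells, 579 to 1042 and 796 to 1022 for the 8 oligodendrocyte genes, 436 to 512 and 444 to 558 for 7 astrocyte genes, 10.1 to 15.4 and 12.2 to 15.9 for 3 oligodendrocyte precursor genes, 58.8 to 96.2 and 77.1 to 110.5 for 8 microglia genes, 66.8 to 210.7 and 108 to 168 for 9 endothelial genes, 42.7 to 96.9 and 48.0 to 82.6 for 7 mural cell genes, and 15.9 to 35.8 and 22.2 to 28.1 for 6 fibroblast genes. All 10 PV+ and all 9 endothelial genes had higher group means in CNO, and all 8 oligodendrocyte and all 8 microglia genes had lower ones, and 2 of the 67 marker genes (2.99%), 1 PV+ and 1 microglia gene, were at an unadjusted p under 0.05, against 4.09% of all genes. None of the 67 markers was at 0 in any sample. Fewer cells of a type and less mRNA per cell cannot be told apart in such samples. Total counts ran from 44064161 to 49413273 per sample, so that 3 counts corresponded to 0.0605 to 0.0671 normalised CPM.

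Levels of the 10 genes spanned a wide range. On the TPM scale, which corrects for transcript length, Timp2 was highest at 51.3 ± 5.81 (SD over the 8 samples), above every other gene of the group in all 8 samples. Timp2 binds gelatinase A and, with a membrane-bound partner, also takes part in its activation. Timp3, the inhibitor that stays bound to the matrix and also blocks ADAMTS4 and ADAMTS5, followed at 13.6 ± 2.29 TPM and exceeded Adamts8 in 7 of 8 samples. Adamts8 had 10.5 ± 2.26 TPM and was above Adamts1, at 7.63 ± 1.70, in all 8 samples. The order of Adamts1 over Adamts4 (6.91 ± 1.83 TPM) and of Adamts4 over Adamts15 (5.99 ± 0.724 TPM) held in 6 of 8 samples each, which leaves these neighbours within the spread between samples. Adamts15 in turn was 2.98- to 7.38-fold above Mmp9 in each sample. The 4 least expressed genes were Mmp9 at 1.37 ± 0.307, Mmp2 at 0.841 ± 0.350, Adamts5 at 0.738 ± 0.224 and Adamts9 at 0.553 ± 0.251 TPM. Mmp2 exceeded Adamts5 in 4 of 8 samples and Adamts5 exceeded Adamts9 in 5 of 8, so these could not be ordered. Timp2 stood above 78.3% of all genes tested and Adamts9 above 7.01%.

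**Figure D1:**
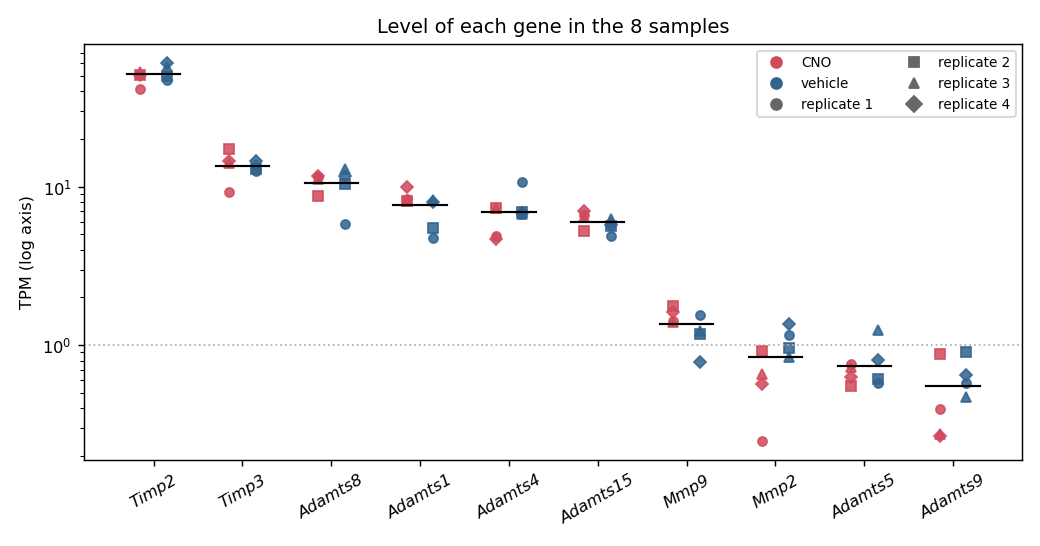
TPM of the 10 genes on a log axis, with 1 point for each of the 4 CNO (red) and 4 vehicle (blue) samples, a bar at the mean of all 8 and a dotted line at 1 TPM. Timp2 lies above all others at a mean of 51.3 TPM, a middle tier runs from Timp3 at 13.6 to Adamts15 at 5.99 TPM, and Mmp9, Mmp2, Adamts5 and Adamts9 have means of 1.37 TPM or below.

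None of the 10 genes passed the test between CNO and vehicle. In edgeR's quasi-likelihood test 0 of 10 were called at an adjusted p under 0.05, over 1.5-fold and a mean TPM above 1, against 0 of all 17495 genes (0%). Mmp2, Adamts5 and Adamts9 had mean levels below 1 TPM and could not have been called by that rule, and the smallest adjusted p of the 10 genes was 0.817. The robust likelihood ratio test of edgeR called none of them and 12 genes in all (0.0686%), and the Wald test of DESeq2 none of them and 10 in all (0.0572%). The paper on these data also used edgeR, with a robust dispersion estimate and the same cut-offs. It names Adamts1 among the top candidates of its differentially expressed genes. Why the calls differ was not tested. An unadjusted p under 0.05 was reached by 2 of 10, Adamts1 with higher values and Mmp2 with lower values in CNO, and by 4.09% of all genes (716). Values of the groups overlapped in all 10, whereas 2.42% of all genes had no overlap. The group means of 5 genes were higher and of 5 lower in CNO, the median log2 fold change being 0.03, and over all genes 8810 were higher and 8685 lower with a median of 0.0015. The coefficient of variation over the 8 samples had a median of 25.8% in the group and 16.1% over all genes.

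**Figure D2:**
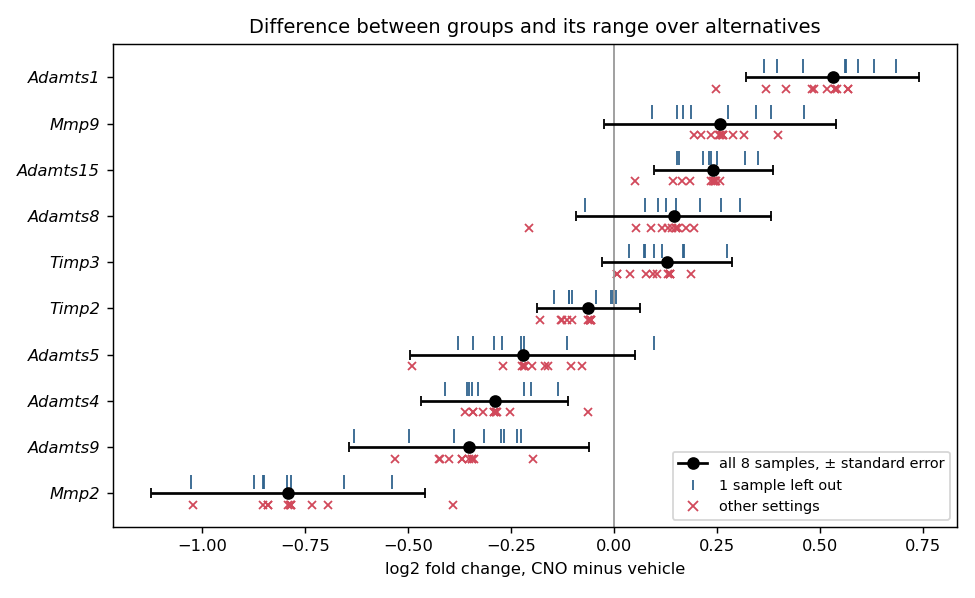
Log2 fold change of CNO over vehicle for each gene from edgeR, with black points and bars for the fit of all 8 samples ± 1 standard error, blue ticks for fits with 1 sample left out and red crosses for the other settings. Mmp2 lies lowest at -0.79 and Adamts1 highest at 0.53, and the other 8 lie between -0.35 and 0.26.

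Adamts1 encodes a protease of aggrecan, versican and brevican and is known as an activity- and hormone-regulated gene. It lies on chromosome 16 (85793827 to 85803113, minus strand), and all of its mRNA sequence is unique among annotated transcripts at a length of 31 bases. Normalised CPM was 17.2, 16.1, 17.4 and 23.4 in CNO samples 1 to 4 and 8.27, 10.9, 16.7 and 15.4 in vehicle samples 1 to 4. In CNO 3 of 4 values lay above the highest vehicle value, and CNO sample 2 lay between vehicle samples 3 and 4, and the difference was widest against vehicle samples 1 and 2. The means were 18.5 ± 3.28 and 12.8 ± 3.92 CPM (SD, n = 4 each), with a log2 fold change of 0.53 (SE 0.21, adjusted p = 0.817 by edgeR). An exact permutation test over the 70 assignments of 4 samples against 4 gave p = 0.0571, where 0.0286 is the smallest it can give, and edgeR gave an unadjusted p = 0.0285. Between replicates 1 and 2 of each group the log2 difference was 0.81, and between replicates 3 and 4 it was 0.33. With 1 sample left out, the log2 fold change ranged from 0.37 (vehicle sample 1, where Pvalb was lowest) to 0.69 (vehicle sample 3). With replicates 1 and 2 blocked against 3 and 4 it was 0.57 (SE 0.14), and with a replicate block it was 0.57 (SE 0.16). With the PV index as a covariate it was 0.25 (SE 0.12, adjusted p = 1 by edgeR). All 10 PV+ genes in this index had higher group means in CNO, so this fit cannot separate treatment from marker level. Among 15172 genes compared over the 8 samples, the profile of centred log2 CPM was closest to Adamts1 in Vgf, a secreted neuropeptide precursor. Its root mean square difference was 0.0793. Rps4l (0.0976), the synaptic vesicle gene Syngr1 (0.128), the muscarinic receptor gene Chrm2 (0.134) and the granin Scg2 (0.147) followed, and the median over all genes was 0.453.

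The 250 bases before the start of Adamts1 are given because this gene had the smallest p of the group, and were searched for letters to which activity-regulated and general factors are known to bind. The sequence is from RefSeq on GRCm38.p6, 5′ to 3′ on the strand of the gene, and capitals mark the GC box GGGCGG.
Adamts1 at chr16:85803114-85803363, minus strand: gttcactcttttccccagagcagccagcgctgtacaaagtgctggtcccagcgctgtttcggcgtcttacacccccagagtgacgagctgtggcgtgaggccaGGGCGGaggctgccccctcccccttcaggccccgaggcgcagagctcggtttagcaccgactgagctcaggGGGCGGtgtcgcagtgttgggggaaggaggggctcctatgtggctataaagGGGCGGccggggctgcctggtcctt
Neither TGACGTCA, the full cAMP response element, nor TGANTCA, the AP-1 site, was found on either strand in this window. They were present in 1.55% and 6.75% of 32851 promoter windows of the same length. The GC box occurred 3 times, at -147, -76 and -25 from the start, and 32.7% of the windows held at least 1 on either strand. A match here is only a run of letters. Promoters were matched for 4 of the 10 genes, and Adamts9, Timp2 and Timp3 each held 1 GC box and neither of the other motifs.

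Adamts15 and Adamts8 lie next to each other on chromosome 9 in opposite directions (30899155 to 30922452, minus strand, and 30942562 to 30963838, plus strand), and both encode proteases able to cut aggrecan. Adamts15 was at 18.3, 13.3, 17.8 and 20.0 CPM in CNO samples 1 to 4 and 12.03, 14.8, 16.9 and 14.9 CPM in vehicle samples 1 to 4. The CNO values exceeded the highest vehicle value in 3 of 4 samples, and CNO sample 2 lay below 3 of the vehicle samples. The log2 fold change was 0.24 (SE 0.14, exact permutation p = 0.229, adjusted p = 0.817 by edgeR), 0.15 without vehicle sample 1 and 0.35 without CNO sample 2. For Adamts8 the values were 19.1, 13.2, 18.3 and 20.0 CPM in CNO and 8.52, 16.2, 21.1 and 18.1 CPM in vehicle samples. Vehicle sample 1 was the lowest and vehicle sample 3 the highest of the 8, so that the vehicle group enclosed all CNO values. Its log2 fold change was 0.14 (SE 0.24, adjusted p = 0.876 by edgeR), and -0.07 without vehicle sample 1. The antisense gene Gm29724 shares 9.41% of the 31-base words of Adamts8, and no source used here says whether strand was used in counting, so reads of these partners cannot be told apart there.

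Adamts4 and Adamts5 encode the main aggrecanases of cartilage, and Adamts4 mRNA is known in oligodendrocytes of the brain. Adamts4, on chromosome 1 (171250421 to 171260637, plus strand), was at 9.56, 13.3, 14.6 and 9.70 CPM in CNO samples and at 18.9, 12.9, 13.2 and 12.8 CPM in vehicle samples. CNO samples 1 and 4 were below all vehicle samples, and vehicle sample 1 was above all others. The means of 11.8 ± 2.56 and 14.4 ± 2.97 CPM (SD) gave a log2 fold change of -0.29 (SE 0.18, exact permutation p = 0.286, adjusted p = 0.817 by edgeR). Without vehicle sample 1 the value was -0.14. Adamts5, on chromosome 16 (85856173 to 85901828, minus strand) on the same strand as Adamts1, had 2.86, 1.92, 2.76 and 2.46 CPM in CNO and 1.95, 2.18, 4.65 and 2.89 CPM in vehicle samples. Vehicle sample 3 alone stood high. The log2 fold change of -0.22 (SE 0.27, adjusted p = 0.836 by edgeR) became 0.098 without that sample. Adamts9, a large protease of versican and aggrecan on chromosome 6 (92772699 to 92943492, minus strand), rested on 38 to 81 counts per sample. Its values were 0.890, 1.67, 1.01 and 0.799 CPM in CNO and 0.939, 1.73, 1.29 and 1.61 CPM in vehicle samples, with overlapping groups and a log2 fold change of -0.35 (SE 0.29, adjusted p = 0.817 by edgeR). It was -0.63 without CNO sample 2 and -0.23 without CNO sample 4. Exons of A730049H05Rik and Gm15737 on the other strand overlap it, and 11.5% of its 31-base words are shared.

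**Figure D3:**
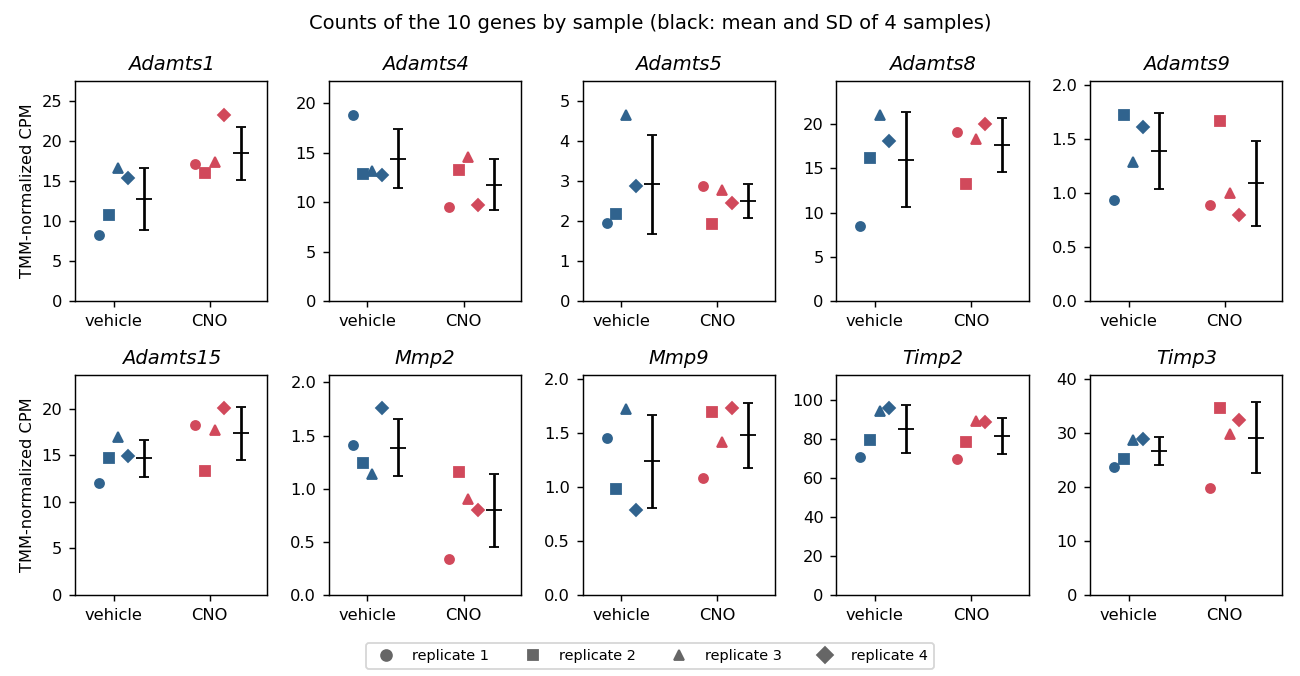
Normalised CPM of each of the 10 genes in the 4 CNO and 4 vehicle samples, with the group mean and SD in black beside the points. Adamts1 has 3 CNO samples above every vehicle sample and Mmp2 has 3 CNO samples below every vehicle sample, and the groups overlap in all 10 panels.

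The gelatinases were both scarce and had group differences of opposite sign. Mmp2, which encodes gelatinase A (chromosome 8, 92827291 to 92853420, plus strand), had 16 to 87 counts per sample. It was at 0.339, 1.16, 0.900 and 0.799 CPM in CNO samples 1 to 4 and at 1.41, 1.24, 1.14 and 1.76 CPM in vehicle samples 1 to 4. CNO samples 1, 3 and 4 were below all vehicle samples, and CNO sample 2 fell between vehicle samples 2 and 3. The means were 0.800 ± 0.343 and 1.39 ± 0.270 CPM (SD, n = 4 each; exact permutation p = 0.0571), with a log2 fold change of -0.79 (SE 0.33, p = 0.0371, adjusted p = 0.817 by edgeR). The log2 difference was -1.01 in replicates 1 and 2 and -0.71 in replicates 3 and 4, and without CNO sample 1 the fold change was -0.54. On the log2(TPM + 1) scale, which understates changes of low genes, it was -0.39. Mmp9, which encodes gelatinase B and lies on chromosome 2 (164940780 to 164955850, plus strand), was at 1.08, 1.69, 1.41 and 1.73 CPM in CNO and 1.45, 0.982, 1.72 and 0.787 CPM in vehicle samples. Values of the groups were interleaved, with a log2 fold change of 0.26 (SE 0.28, adjusted p = 0.823 by edgeR). With 39 to 83 counts per sample, single samples moved this value, to 0.09 without vehicle sample 4 and to 0.46 without vehicle sample 3.

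The inhibitors had the smallest fold changes of the group. Timp2 (chromosome 11, 118301069 to 118355740, minus strand) was at 69.7, 78.4, 89.5 and 88.6 CPM in CNO and 70.8, 79.4, 94.6 and 95.7 CPM in vehicle samples. In both groups samples 1 and 2 were lower than samples 3 and 4. Its log2 fold change was -0.06 (SE 0.12, adjusted p = 0.895 by edgeR), and 0.0055 without CNO sample 1. Timp3 (chromosome 10, 86300372 to 86349506, plus strand) was at 19.9, 34.6, 29.9 and 32.4 CPM in CNO and 23.8, 25.2, 28.8 and 29.0 CPM in vehicle samples. The CNO group held both the lowest value and the 3 highest values, and the log2 fold change was 0.13 (SE 0.16, adjusted p = 0.835 by edgeR). It was 0.27 without CNO sample 1 and 0.04 without CNO sample 2. Timp3 shares 21.9% of its 31-base words, mostly with Syn3 on the opposite strand, in which it lies. Of all pairs of the group, Timp2 and Timp3 had the smallest root mean square difference in centred log2 CPM, 0.185. This measure is small wherever both genes vary little, so it does not show that they vary together. Their coefficients of variation over the 8 samples were 12.2% and 17.1%, against a median of 25.8% in the group.

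Levels of 3 proteases followed the balance of PV+ and pyramidal cell markers, both over all samples and within treatments. The relations of 10 genes with 3 marker measures, the PV index, mean oligodendrocyte marker expression and a vascular index (mean log2 CPM of endothelial, mural and fibroblast markers), were chosen after the values had been seen. They were tested by two-sided exact permutation over 40320 orders with adjustment over 30 relations, of which 7 passed for Pearson's r. This shuffling ignores treatment, so part of each r can be the difference between groups. Only the 10 genes were compared with these measures, so the share of all genes that would pass is not known. The relations therefore cannot be called particular to these genes. With the group means removed and orders permuted within treatments (576 orders, smallest p 0.00174, added after these results were seen), 3 of the 30 passed, those of Adamts1, Adamts8 and Adamts15 with the PV index, and on ranks 2 did, those of Adamts8 and Adamts15. Adamts15 rose with the PV index over all 8 samples, with r = 0.915 (permutation p = 4.96e-05, adjusted p = 0.00149) and Spearman's rho = 0.976 (p = 0.000397, adjusted p = 0.0119), and r was 0.93 without the 2 samples farthest from the median, CNO 4 and vehicle 1. Within treatments its r was 0.889 (permutation p = 0.00174, adjusted p = 0.026). Adamts8 did so with r = 0.957 (permutation p = 0.000992, adjusted p = 0.0149) and rho = 0.929 (p = 0.00223, adjusted p = 0.0335), and r was 0.893 without the same samples and 0.982 within treatments (adjusted p = 0.026 by permutation). For Adamts1 r was 0.916 (permutation p = 0.00275, adjusted p = 0.0264) and rho 0.857 (p = 0.0107, adjusted p = 0.107), and r was 0.60 without them and 0.913 within treatments (adjusted p = 0.0347 by permutation). The other 4 relations passed over all samples but not within treatments. For Adamts4 and the PV index r = -0.853 (permutation p = 0.00804, adjusted p = 0.0366) and rho = -0.714 (p = 0.0576, adjusted p = 0.216), and the relation rested on those samples, as r was -0.425 without them (within treatments -0.808, adjusted permutation p = 0.168). Adamts4 was related to oligodendrocyte markers with r = 0.895 (permutation p = 0.00501, adjusted p = 0.0301) and rho = 0.786 (p = 0.0279, adjusted p = 0.12), and r was 0.661 without CNO 1 and CNO 4 (within treatments 0.861, adjusted permutation p = 0.137). With these markers Adamts15 had r = -0.837 (permutation p = 0.00853, adjusted p = 0.0366) and rho = -0.833 (p = 0.0154, adjusted p = 0.115), and r was -0.717 without those samples (within treatments -0.785, adjusted permutation p = 0.13). Timp3 was related to the vascular index with r = 0.879 (permutation p = 0.00352, adjusted p = 0.0264) and rho = 0.786 (p = 0.0279, adjusted p = 0.12), and r was 0.844 without CNO 1 and CNO 3 (within treatments 0.875, adjusted permutation p = 0.13). Adamts9 had r = -0.151 with the PV index over all 8 samples (adjusted p = 0.903 by permutation), but -0.898 without vehicle sample 1. No test was made without that sample. All measures come from the same libraries, and all 10 PV+ markers had higher group means in CNO. With the PV index as a covariate the log2 fold change was nearer to 0 for Adamts15 (0.05, SE 0.10), Adamts4 (-0.06, SE 0.13), Mmp2 (-0.69, SE 0.36) and Timp3 (0.09, SE 0.16). It was farther from 0 for Adamts5 (-0.49, SE 0.23), Timp2 (-0.18, SE 0.10) and Mmp9 (0.32, SE 0.31), at -0.35 for Adamts9 as without it (SE 0.31), and of opposite sign for Adamts8 (-0.21, SE 0.092), with an adjusted p of 1 by edgeR for each of the 10 genes.

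**Figure D4:**
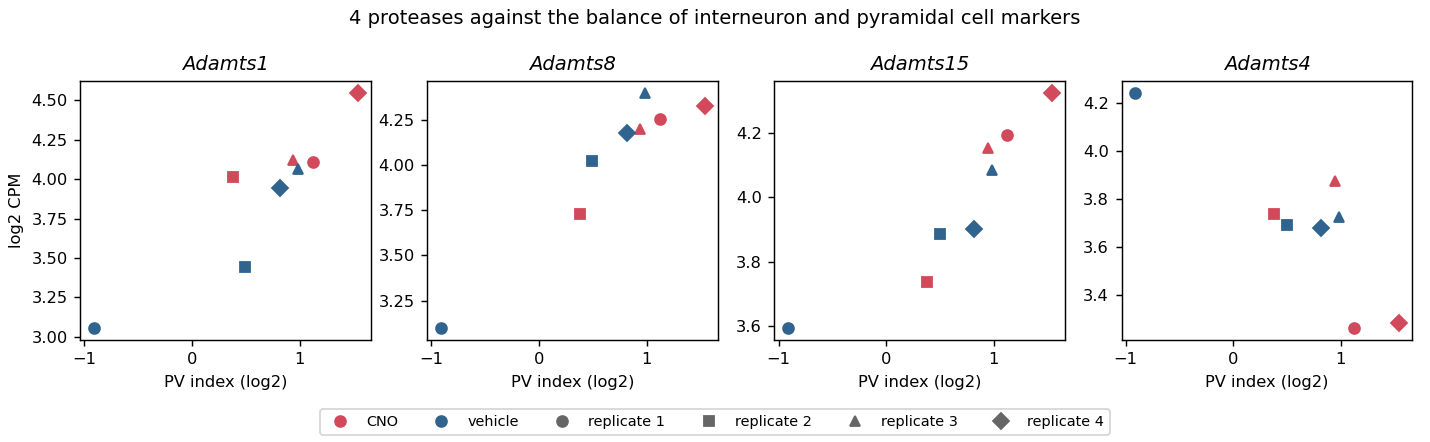
Log2 CPM of Adamts1, Adamts8, Adamts15 and Adamts4 against the PV index, with colour for treatment and marker shape for replicate. Vehicle sample 1, at an index of -0.92, has the lowest Adamts1, Adamts8 and Adamts15 and the highest Adamts4 of the 8 samples.

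Genes around these proteases showed the same absence of called differences. Of 63 genes in 5 pathway lists 45 were tested, none passed at an adjusted p under 0.05, and 4 (8.89%) had an unadjusted p under 0.05, against 4.09% of all genes. All 4 had lower values in CNO, as did 464 of the 716 such genes overall. Among the other ADAMTS proteases 10 of 13 were tested, 2 with higher and 8 with lower means and a median log2 fold change of -0.15, and Adamts17 was the most abundant at 10.2 TPM. Adamts2, the procollagen N-propeptidase, was at 4.36 CPM in CNO against 5.34 in vehicle samples with groups that did not overlap (log2 fold change -0.29, SE 0.13, adjusted p = 0.817 by edgeR). It was the only one of the 45 tested genes of the 5 lists without overlap, and 2.42% of all genes had none. Of the other matrix metalloproteinases 9 of 19 were tested, 4 higher and 5 lower with a median of -0.0040, and the membrane-type enzymes Mmp16 (34.5 TPM, 18.7 to 67.0 over samples) and Mmp17 (34.2 TPM, 25.4 to 39.2), whose order lay within the spread between samples, were the most abundant. The inhibitors and ADAMTS-like proteins, which resemble ADAMTS enzymes but lack the protease domain, had 8 of 9 tested, 3 higher and 5 lower with a median of -0.05. Adamtsl1 (log2 fold change -0.38, SE 0.13) and Adamtsl2 (-0.48, SE 0.18) had lower values in CNO at an adjusted p of 0.817 each by edgeR, and Adamtsl5 was the most abundant at 61.0 TPM. Of the activating proteases and clearance receptors 8 of 11 were tested, 3 higher and 5 lower with a median of -0.09, led by the serpin Serpine2 at 51.9 TPM. Of the lecticans and their net partners 10 of 11 were tested, 5 higher and 5 lower with a median of 0.11, and the link protein gene Hapln4 was the most abundant at 168 TPM. Among these substrates Vcan, encoding versican, was at 2.26 CPM in CNO and 3.38 in vehicle (log2 fold change -0.58, SE 0.23, adjusted p = 0.817 by edgeR).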

How the data were processed

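RNA-seq of HA-tagged ribosome pull-downs from S1 was analysed for 4 CNO and 4 vehicle samples. The authors trimmed reads with Trim Galore, aligned them to GRCm38 with STAR, quantified genes with Salmon and imported them with tximport; versions and strand setting are not given in the sources used here. They deposited estimated counts per gene, not normalized, and TPM. Counts were rounded. A gene was left out when 4 or more samples had fewer than 10 counts, TMM factors were applied, and the groups were compared in R 4.3.3 with the quasi-likelihood test of edgeR 4.0.16 and Benjamini-Hochberg adjustment over 17495 genes. Log2 CPM used a prior count of 2. limma 3.58.1 and DESeq2 1.42.0 served as alternatives. The quasi-likelihood, robust likelihood ratio, DESeq2 and limma fits without covariates were tested on simulated data. Fits with a block, a covariate or another scaling were not. Plots and exact tests used Python 3.11.15, SciPy 1.17.1 and matplotlib 3.10.9. The 10 genes and all lists were chosen with earlier results of these data known. All 10 genes are named. From each pathway list the most abundant gene and those at an unadjusted p under 0.05 are named, with the 5 genes most like Adamts1 and with Fos, Pvalb and Slc17a7 as checks. No 2 samples were identical.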

Additional observations from a re-analysis of the deposited data

Results flagged for a closer look

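The log2 CPM of Adamts4 in vehicle sample 1 was 4.24, against 3.68 to 3.72 in the other 3 vehicle samples, a gap larger than Dixon's 95% critical value for 4 samples. It was the single such value among 20 groups tested (10 genes in each treatment), and chance alone gives about 1 in 20. Vehicle sample 1 also had the lowest PV index of the 8 samples, and its part in the value was not tested.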

How the results depend on the processing

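No gene of the group passed an adjusted p under 0.05 in any of 19 alternatives. Over all genes the count called was 0, and it was 12 with the robust likelihood ratio test, 10 with DESeq2, 4 without the filter on low counts, 3 with a block of replicates 1 and 2 against 3 and 4, and 0 to 2 when 1 sample was left out (2 without CNO sample 1). Of the 2 genes of the group at an unadjusted p under 0.05, 1 remained on log2(TPM + 1) and log2(TPM + 0.1), which was Mmp2. On these scales 5.37% and 5.24% of all genes were below that p. With the PV index as covariate 1 gene of the group, Adamts8, was below it, against 3.21% of all genes. Leaving out 1 sample gave 0 to 4 such genes: 0 without CNO sample 4 and without vehicle sample 1, 1 without CNO sample 3, vehicle sample 2 or vehicle sample 4, and 4 without CNO sample 2, where the share of all genes below that p was 1.82%, 2.26%, 3.08%, 3.90%, 4.38% and 9.62% in that order, against 4.09% with all samples. Without CNO sample 1 the 2 genes were Adamts1 and Timp3, and Mmp2 was not below it, where the share of all genes was 2.84%. The direction reversed for Adamts5 without vehicle sample 3 (0.098), for Adamts8 with the PV index (-0.21) and without vehicle sample 1 (-0.070), and for Timp2 without CNO sample 1 (0.0055); the cause was not tested. Without 1 sample the log2 fold change ranged from 0.37 to 0.69 for Adamts1, -1.03 to -0.54 for Mmp2, -0.38 to 0.098 for Adamts5, -0.070 to 0.31 for Adamts8, -0.15 to 0.0055 for Timp2, -0.41 to -0.14 for Adamts4, -0.63 to -0.23 for Adamts9, 0.15 to 0.35 for Adamts15, 0.09 to 0.46 for Mmp9 and 0.04 to 0.27 for Timp3. Replicate numbers showed no clear pairing of the samples (correlations of deviations -0.02, -0.14, 0.13 and 0.26, and 2 of 8 samples correlated best with their own number), and no test was made. With replicates 1 and 2 blocked against 3 and 4, 6.82% of all genes were below an unadjusted p of 0.05, against 4.09% without a block. A replicate block gave 0 called genes, 2 genes of the group at an unadjusted p under 0.05 (4.37% of all genes), and 0.57 for Adamts1. Of 7 relations with marker levels, 3 passed with orders permuted within treatments, a setting chosen after seeing the data. No share over all genes was calculated for these relations. Depth limits Mmp2, Mmp9, Adamts9 and Adamts5 most.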

Other observations

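Replicates 3 and 4 stood above replicates 1 and 2, averaged over both treatments, by 0.52 on the log2 scale for Adamts1, 0.50 for Adamts8 and 0.49 for Adamts5. In the rest of the group this difference ran from -0.13 for Adamts9 to 0.31 for Timp2, and it was not calculated over all genes. Single vehicle samples weigh on these averages. Vehicle sample 1 had the lowest Adamts1 and Adamts8 of all samples, and vehicle sample 3 the highest Adamts5 and Adamts8. The labels give no batch for the replicates, and no test was made.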
